A study of Mus musculus with 14 samples.

Results

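The mitochondrial genome was read here through its 37 genes, which were 37 of the 43346 rows of the count table. They were taken as every row whose Ensembl identifier, without its version, has a symbol starting with mt- in GENCODE M21, the mouse annotation on the genome build GRCm38. They comprise 13 mRNAs, 2 rRNAs and 22 tRNAs. The rule rests on names and uses no measured value, but it was chosen with earlier results of these data known. Counts came from 14 RNA-seq libraries, each made from 800 to 1000 live GFP-positive cells sorted from the hippocampus of wild-type C57BL/6 mice at day 14. The submitters call the cells abGCs, adult-born granule cells, the neurons that the dentate gyrus keeps adding in adult life. All 4 groups received clozapine-N-oxide (CNO), the drug that activates a DREADD, a designer receptor. CAG-GFP Sham (3 libraries) and CAG-GFP Pilo (4 libraries) had cells with GFP under the CAG promoter and no DREADD, and DREADD Sham (4 libraries) and DREADD Pilo (3 libraries) had cells with the DREADD, which the labels use for silencing. In the Pilo groups status epilepticus was set off with pilocarpine, a muscarinic agonist, at 300 mg/kg, after scopolamine methyl nitrate and terbutaline, and was stopped after 3 h with diazepam. Sham mice had no seizures, per the labels. The labels name no animal for a library, so the spread between libraries, and every p-value built on it, may be technical. Each library pooled many cells, so fewer cells of a kind and less RNA per cell cannot be told apart in any value below.

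Mitochondria carry their own small circular genome, which is transcribed from both strands into long precursors. The tRNAs lie between most of the mRNAs and rRNAs, and their excision releases the other transcripts, so most transcripts begin and end beside a tRNA. The mRNAs encode core subunits of the respiratory chain and of ATP synthase, the 2 rRNAs form the mitochondrial ribosome, and all other proteins of these machines come from nuclear genes. Neurons and glia of the hippocampus rely on these complexes for ATP, and mitochondrial RNA is usually abundant in brain libraries.

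Sequences bear on how these genes could be counted, because the nuclear genome holds old insertions of mitochondrial DNA. Among annotated transcripts, 7 pseudogenes in a block on chromosome 1 (GRCm38, 24611535 to 24616197, minus strand) matched mitochondrial mRNAs at over 99% identity. The first pair below shows the start of mt-Atp6, an ATP synthase subunit, beside its copy Gm10925, with no difference over these 90 bases. In the second pair, mt-Nd3, a complex I subunit, differs from its copy Gm28438 at the base in capitals, which was the only mismatch in 345 aligned bases. The last pair shows mt-Cytb, the complex III subunit, and its older copy Gm11410 on chromosome 4, where capitals mark 3 differences in 90 bases.

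mt-Atp6, chrM:7927-8016, plus strand: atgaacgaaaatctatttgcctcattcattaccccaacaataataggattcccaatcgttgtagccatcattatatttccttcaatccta
Gm10925, chr1:24614562-24614651, minus strand: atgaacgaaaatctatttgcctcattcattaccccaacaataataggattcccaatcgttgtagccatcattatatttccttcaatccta
mt-Nd3, chrM:9459-9548, plus strand: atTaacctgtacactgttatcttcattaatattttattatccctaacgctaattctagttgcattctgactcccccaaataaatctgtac
Gm28438, chr1:24613030-24613119, minus strand: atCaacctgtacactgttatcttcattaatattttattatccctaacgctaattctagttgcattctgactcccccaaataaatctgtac
mt-Cytb, chrM:14346-14435, plus strand: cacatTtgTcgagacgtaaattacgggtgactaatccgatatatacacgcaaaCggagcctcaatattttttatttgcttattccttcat
Gm11410, chr4:80004190-80004279, plus strand: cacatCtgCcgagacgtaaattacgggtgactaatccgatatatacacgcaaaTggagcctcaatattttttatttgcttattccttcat

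The tRNAs described most closely below are printed next in their own 5′ to 3′ direction, with the anticodon in capitals, because their counts set groups or libraries apart. The tRNAs for alanine, asparagine, cysteine and tyrosine lie side by side on the minus strand between mt-Nd2 and mt-Co1, the tRNA for glutamate lies between mt-Nd6 and mt-Cytb, and mt-Tl1 lies between mt-Rnr2 and mt-Nd1.

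mt-Ta (alanine), chrM:5018-5086, minus strand: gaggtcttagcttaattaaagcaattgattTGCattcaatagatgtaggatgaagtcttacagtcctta
mt-Tn (asparagine), chrM:5089-5159, minus strand: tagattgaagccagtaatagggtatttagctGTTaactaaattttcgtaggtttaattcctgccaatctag
mt-Tc (cysteine), chrM:5192-5257, minus strand: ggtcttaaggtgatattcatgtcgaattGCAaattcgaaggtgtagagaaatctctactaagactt
mt-Ty (tyrosine), chrM:5260-5326, minus strand: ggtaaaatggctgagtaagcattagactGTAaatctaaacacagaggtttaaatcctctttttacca
mt-Te (glutamate), chrM:14071-14139, minus strand: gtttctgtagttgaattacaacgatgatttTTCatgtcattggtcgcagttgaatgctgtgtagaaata
mt-Tl1 (leucine), chrM:2676-2750, plus strand: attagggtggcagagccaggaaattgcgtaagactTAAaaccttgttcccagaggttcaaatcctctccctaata

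Libraries held 10613291 to 38614639 counts. They fell into 2 sets by the share of counts in nuclear pseudogenes, leaving out 9 copies of mitochondrial DNA: 0.109% to 0.198% in set 1 (CAG-GFP Sham 1 to 3, DREADD Sham 1 and 2, CAG-GFP Pilo 3 and 4) and 4.33% to 8.12% in set 2 (CAG-GFP Pilo 1 and 2, DREADD Sham 3 and 4, DREADD Pilo 1 to 3). The labels do not describe these sets, but the library names follow them. CAG-GFP Pilo libraries are named CAGPC in set 1 and CAG_GFP in set 2, and DREADD Sham libraries DREADSC in set 1 and Dreadsc in set 2. What the names stand for is not given. The sets cut across these 2 groups, while CAG-GFP Sham and DREADD Pilo lie in 1 set each. Prox1, which defines dentate granule cells, was at 5.63 to 14.6 CPM (counts scaled to library depth with TMM factors) in CAG-GFP Sham and at 0 in CAG-GFP Pilo 4 and DREADD Pilo 3. The 10 granule cell markers summed to 145 to 163 CPM in CAG-GFP Sham, 99.6 to 188 in DREADD Pilo, 110 to 810 in DREADD Sham and 397 to 1181 in CAG-GFP Pilo. Of these markers, C1ql2, Trpc6 and Plk5 were at 0 in all 3 CAG-GFP Sham libraries, while Calb1 was at 51.0 to 67.8 and Rasgrp1 at 50.8 to 101 CPM there. The 10 astrocyte markers summed to 27386 to 28796 CPM in CAG-GFP Sham and 753 to 6331 CPM in the other 11 libraries. The 8 oligodendrocyte markers summed to 502 to 644 CPM in CAG-GFP Sham and 385 to 40879 CPM in the other 11, with DREADD Pilo 3 the lowest of these. In DREADD Pilo 3 the 9 ependymal and choroid plexus markers summed to 189613 CPM, against 379 to 17318 in the other 13 libraries. The 8 microglia markers ran from 171 CPM in DREADD Pilo 3 to 28027 in DREADD Pilo 1. The part of these cell mixtures and library sets in the mitochondrial values was not tested except where a fit within a set is given.

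Among transcripts long enough to compare per length, mt-Cytb had the highest level. On the scale of CPM per kilobase of gene it averaged 18163 over the 14 libraries, and it ranked first in 12 of them. The large rRNA mt-Rnr2 followed at 15078, then the complex I subunit mt-Nd1 at 11869 and mt-Co1, the catalytic subunit of complex IV, at 9731 CPM per kilobase. The small rRNA mt-Rnr1 averaged 5372, and the complex I subunits mt-Nd2, mt-Nd6, mt-Nd4 and mt-Nd5 averaged 4779, 4343, 4322 and 3306 CPM per kilobase. Neighbours in this order were not always apart beyond their spread, since in DREADD Sham mt-Nd6 stood at 1091 ± 281 and mt-Nd4 at 1367 ± 602 CPM per kilobase (SD, n = 4). In CAG-GFP Sham the order was clearer at the top, with mt-Cytb at 36675 ± 884, mt-Co1 at 25312 ± 447, mt-Rnr2 at 23587 ± 3124 and mt-Nd1 at 15170 ± 934 CPM per kilobase (SD, n = 3). There mt-Co1 and mt-Rnr2 did not differ beyond their spread.

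The other 6 mRNAs were nearly empty in every library. They were mt-Co2 and mt-Co3 (complex IV), mt-Atp8 and mt-Atp6 (ATP synthase), and mt-Nd3 and mt-Nd4l (complex I), which lie together on the mitochondrial genome between mt-Co1 and mt-Nd4. Their mean levels were 0.70 for mt-Nd3, 0.923 for mt-Co2, 3.08 for mt-Nd4l, 3.93 for mt-Atp6, 4.35 for mt-Co3 and 6.82 for mt-Atp8 CPM per kilobase. In all 14 libraries the 9 genes above took the first 9 ranks and these 6 the last 6 ranks. All 6 together had 2293 of the 21875291 mitochondrial counts (0.0105%), or 36 to 520 counts per library, while the other 7 mRNAs had 70.8%, the 2 rRNAs 27.98% and the 22 tRNAs 1.17%. This grouping was made after the values were seen and has no test.

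These 6 genes lie in the stretch that the chromosome 1 block repeats. Copies at over 99% identity covered 98.99% of mt-Nd4l (Gm10222), 99.1% of mt-Nd3 (Gm28438), 99.9% of mt-Co3 (Gm28437), 99.6% of mt-Atp6 (Gm10925, printed above) and 99.6% of mt-Co2 (Gm28661). For mt-Atp8 no annotated copy reached that identity, but the 233 bases between Gm10925 and Gm28661 equal the spacing on the mitochondrial genome that holds mt-Tk and mt-Atp8. The copies also cover 63.6% of mt-Nd4 (Gm28439) and 31.3% of mt-Co1 (Gm29216), both of which kept high counts. Among the well-counted genes without such a copy, mt-Nd2 had 96.7% identity to its longest copy. The value was 93.6% for mt-Nd6, 92.9% for mt-Cytb, 92.4% for mt-Nd5 and 88.4% for mt-Rnr2. Mt-Co1 also had a copy over its whole length at 97.6% identity (Gm13340). The 7 copies of this block and Gm13340 and Gm13341 on chromosome 2, the 9 listed copies, held 10042 counts in all, 5540 of them in Gm28438, against 54 for mt-Nd3 itself. Among the other matched pseudogenes kept, the 5 with any count held 1 to 14 counts each. The summed level of the 9 was 71.1 to 141 CPM in CAG-GFP Sham and 2.04 to 27.1 CPM in the other 11 libraries. How reads with several matches were treated is not given in the sources used here, and its part in the low counts was not tested. Values for the 6 genes are therefore uncertain, as are those for the overlapping pairs mt-Atp8 and mt-Atp6, mt-Nd4l and mt-Nd4, and mt-Nd5 and mt-Nd6. The strand setting is not given either, so mt-Nd6 and the minus-strand tRNAs mt-Tq, mt-Ta, mt-Tn, mt-Tc, mt-Ty, mt-Ts1, mt-Te and mt-Tp cannot be told from reads of the opposite strand.

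**Figure D1:**
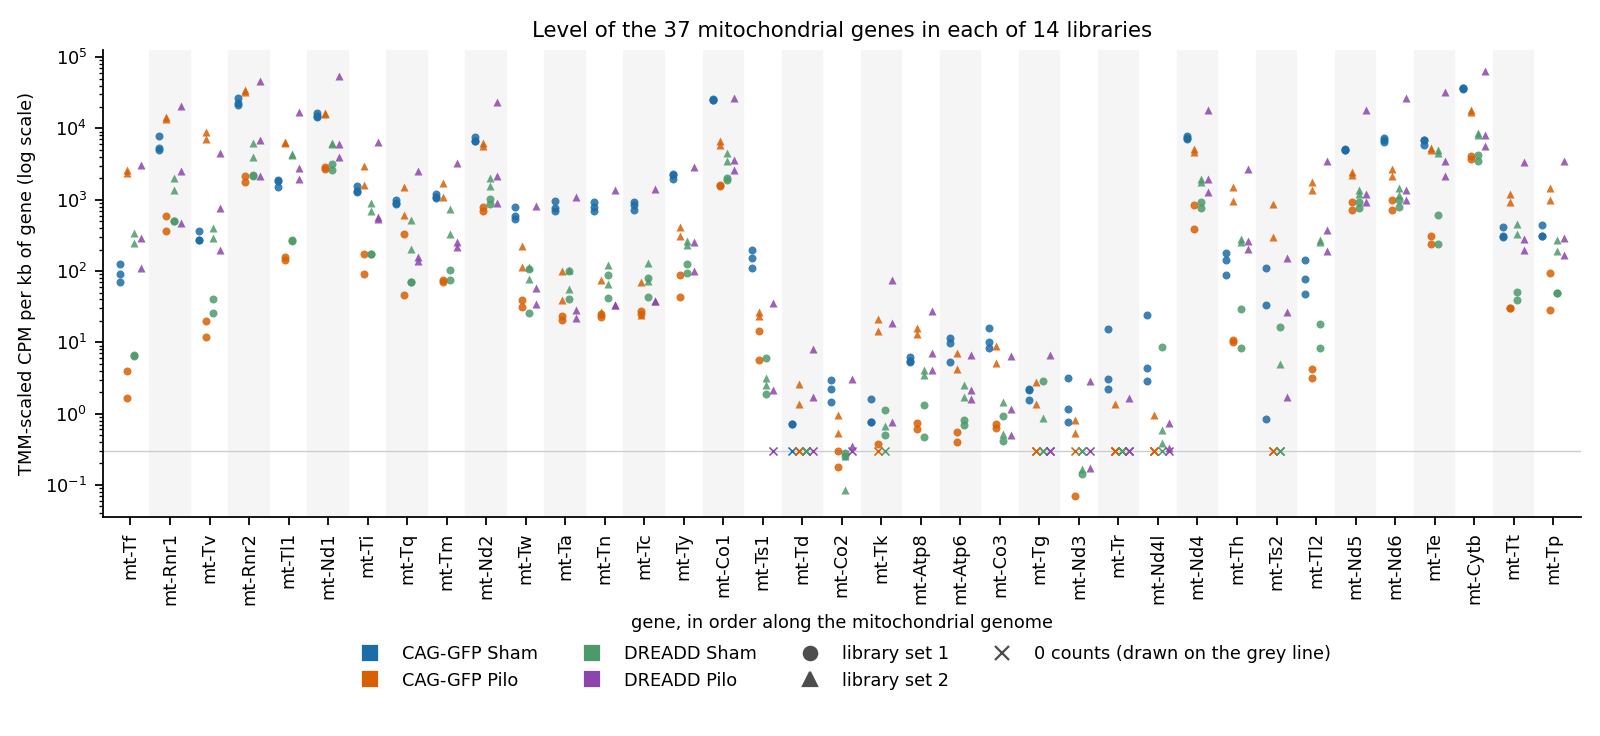
TMM-scaled CPM per kilobase of gene (log scale) of the 37 mitochondrial genes in genome order, with 1 point per library, coloured by group, as circles for library set 1 and triangles for set 2; crosses on the grey line are 0 counts. The genes from mt-Td to mt-Nd4l lie below mt-Co1 and mt-Nd4 in every library, and DREADD Pilo 3 is the highest purple triangle for most genes.

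Mitochondrial genes took 11.6%, 12.7% and 11.6% of the counts in the 3 CAG-GFP Sham libraries. In CAG-GFP Pilo the shares were 12.7% and 13.9% in libraries 1 and 2 and 2.06% and 2.25% in libraries 3 and 4. DREADD Sham had 2.42%, 2.21%, 4.90% and 4.22%. DREADD Pilo had 2.58%, 4.50% and 25.8%. All DREADD Sham libraries were thus below all CAG-GFP Sham libraries, while CAG-GFP Pilo split by library set and DREADD Pilo was spread by its library 3. The means were 11.95% ± 0.648 (SD, n = 3) in CAG-GFP Sham, 7.73% ± 6.45 (n = 4) in CAG-GFP Pilo, 3.44% ± 1.33 (n = 4) in DREADD Sham and 10.95% ± 12.9 (n = 3) in DREADD Pilo. Without DREADD Pilo 3, the library with the high choroid plexus markers, the DREADD Pilo mean was 3.54%. As a sum over chosen genes, this share has no test.

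**Figure D2:**
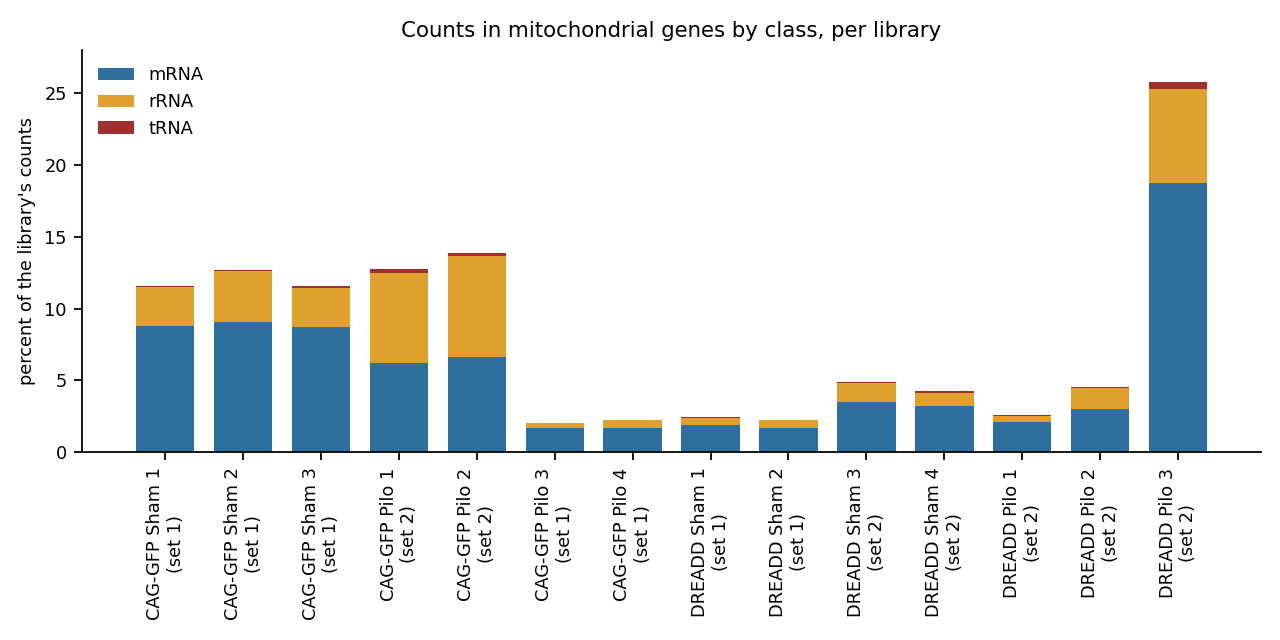
Percent of each library's counts in mitochondrial mRNAs, rRNAs and tRNAs, as stacked bars from 0 for the 14 libraries. The bars reach 11.6% to 12.7% in CAG-GFP Sham, split into 12.7% and 13.9% against 2.06% and 2.25% in CAG-GFP Pilo, and reach 25.8% in DREADD Pilo 3.

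Seizures in cells without the DREADD were addressed by CAG-GFP Pilo against CAG-GFP Sham. The smallest p-values were those of mt-Co1 and of the minus-strand tRNAs before it, mt-Tc, mt-Tn, mt-Ta and mt-Ty, and all 5 stood lower after seizures. Mt-Co1 was at 39162, 39768 and 38390 CPM in CAG-GFP Sham and at 9159, 10331, 2527 and 2405 CPM in CAG-GFP Pilo. Every Pilo library was below every Sham library, and the 2 set 1 libraries were the lowest. Its log2 fold change was −2.68 ± 0.79 (SE), with an adjusted p of 0.234 by edgeR's quasi-likelihood test with Benjamini-Hochberg adjustment, so the difference did not pass.

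The 2 tRNAs with the smallest p-values showed the same separation. Mt-Tc, the cysteine tRNA, was at 55.7, 47.3 and 61.8 CPM in CAG-GFP Sham and at 1.60, 4.61, 1.65 and 1.79 CPM in CAG-GFP Pilo, a log2 fold change of −4.51 ± 1.21 (edgeR adjusted p = 0.176). Mt-Tn, the asparagine tRNA, was at 56.3, 49.9 and 66.4 CPM against 1.88, 5.34, 1.60 and 1.79 CPM (−4.44 ± 1.22, edgeR adjusted p = 0.195). For both tRNAs the groups were far apart in every library, and library set made little difference within CAG-GFP Pilo. Beside them mt-Ta had a log2 fold change of −4.13 ± 1.25 and mt-Ty of −3.31 ± 1.03.

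The other well-counted transcripts split by library. Mt-Cytb was at 40799, 42667 and 42404 CPM in CAG-GFP Sham and at 19572, 20637, 4672 and 4235 CPM in CAG-GFP Pilo (log2 fold change −1.77 ± 0.81, edgeR adjusted p = 0.32). Mt-Nd1 was at 13782, 14257 and 15513 CPM against 15918, 15294, 2782 and 2579 CPM, so Pilo libraries 1 and 2 reached the Sham level while libraries 3 and 4 did not. Mt-Rnr2 was at 33602, 42925 and 35416 CPM against 51210, 54842, 2823 and 3460 CPM, with the first 2 Pilo libraries above every Sham library. Mt-Nd6, the complex I subunit of the minus strand, was at 3595, 3357 and 3859 CPM against 1101, 1390, 518 and 375 CPM (−2.09 ± 0.89, edgeR adjusted p = 0.303). Mt-Nd2, mt-Nd4 and mt-Nd5 had log2 fold changes of −1.05, −1.43 and −1.67, and mt-Rnr1 of 0.27.

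Of the 37 genes, 33 passed the low-count filter, and mt-Td, mt-Tg, mt-Tr and mt-Nd3 did not. None of the 33 passed the test between CAG-GFP Pilo and CAG-GFP Sham, where edgeR called 0.241% of all 18676 genes tested. At an unadjusted p under 0.05 there were 8 of the 33, while 15.4% of all genes were at that level. Fold changes were negative for 22 and positive for 11, with a median of −1.05 against 0.41 over all genes tested. Groups did not overlap, with every Pilo library lower, for 15 of the 33, and for 12.2% of all genes. DESeq2 called 4 of the 33 lower (mt-Ta, mt-Tn, mt-Tc and mt-Co1), or 12.1%, close to the 11.9% it called of all genes. Limma voom called 10 lower, or 30.3%, against 4.16% of all genes. A fit of these 2 groups alone called 2 (mt-Tn and mt-Tc) against 1.12% of all genes.

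Within library set 1, where CAG-GFP Pilo had its libraries 3 and 4, all 32 genes tested were lower than in CAG-GFP Sham, and 17 of them fell past the threshold. Called genes made up 53.1% of the mitochondrial genes and 2.73% of all 17260 genes tested there. Mt-Co1 fell by 4.01 on the log2 scale (SE 0.18, edgeR adjusted p = 0.000141). Mt-Cytb fell by 3.26 (edgeR adjusted p = 0.000199), mt-Rnr2 by 3.59 and mt-Nd1 by 2.46, the smallest value among the 9 well-counted genes. The tRNAs mt-Tl1, mt-Ti, mt-Tm, mt-Ta, mt-Tn, mt-Tc, mt-Ty and mt-Te were also called. The median over all genes was −0.07 in that fit. This is a comparison of 2 libraries with 3, in which the astrocyte markers differed as well (753 and 870 CPM against 27386 to 28796). CAG-GFP Pilo 4 had 9372 genes detected, against 14599 to 15462 in CAG-GFP Sham, and its blood cell markers summed to 18308 CPM, against 3.33 to 7.81. In CAG-GFP Pilo 3 the ependymal and choroid plexus markers summed to 9709 CPM, against 2373 to 3138 in CAG-GFP Sham. The part of cell mixture and of genes detected in this fit was not tested. Set 2 has no CAG-GFP Sham library, so the high levels of CAG-GFP Pilo 1 and 2 have no control within their set.

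**Figure D3:**
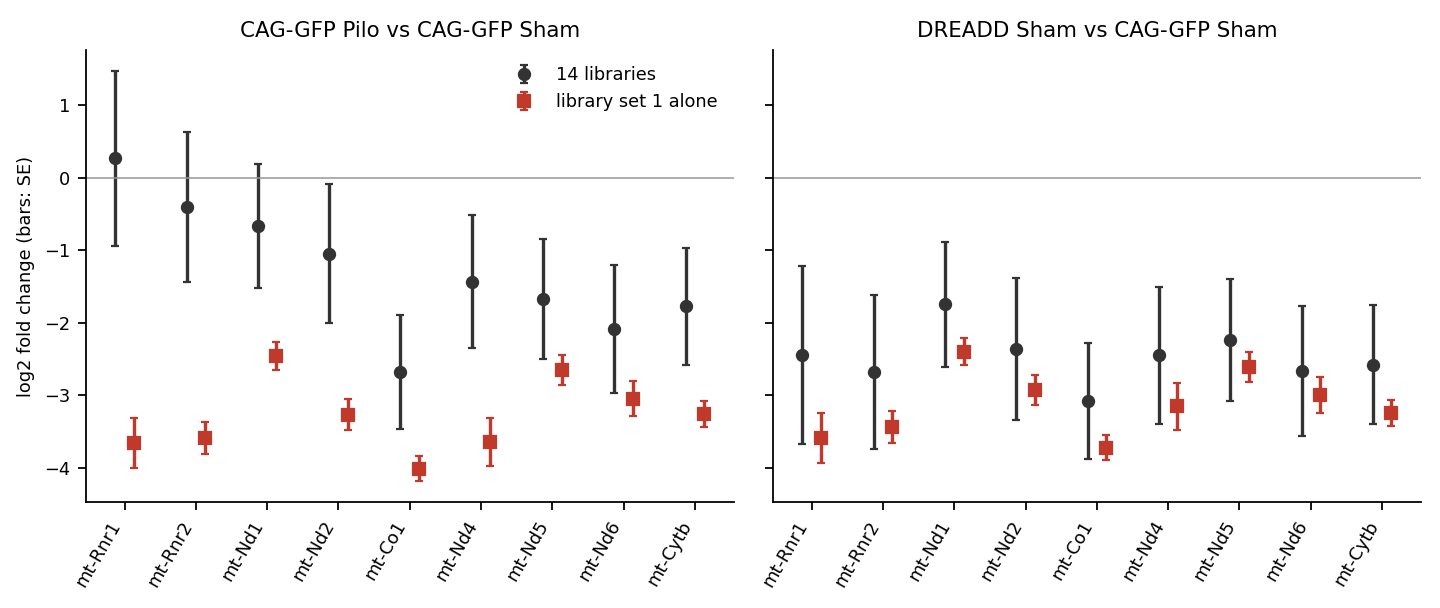
Log2 fold change with its SE (bars) of the 9 well-counted mitochondrial genes against CAG-GFP Sham, for CAG-GFP Pilo (left) and DREADD Sham (right), from all 14 libraries (black circles) and from library set 1 alone (red squares). With all libraries mt-Rnr1 lies at 0.27 and mt-Co1 at −2.68 on the left, while in set 1 all 9 genes lie between −2.46 and −4.01.

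The DREADD with CNO and no seizures was addressed by DREADD Sham against CAG-GFP Sham, which shares the CAG-GFP Sham libraries with the comparison above. Here nearly every mitochondrial transcript stood lower. Mt-Co1 was at 3104, 2894, 6989 and 5426 CPM in DREADD Sham, against the 38390 to 39768 CPM of CAG-GFP Sham (log2 fold change −3.09 ± 0.80, edgeR adjusted p = 0.123). Mt-Cytb was at 4900, 4040, 9988 and 9142 CPM (−2.58 ± 0.82, edgeR adjusted p = 0.202). Mt-Ty, the tyrosine tRNA next to mt-Co1, was at 147, 153 and 132 CPM in CAG-GFP Sham and at 8.45, 6.33, 15.4 and 17.7 CPM in DREADD Sham (−3.59 ± 1.04, edgeR adjusted p = 0.16). No DREADD Sham library came near the CAG-GFP Sham level for these 3 genes, and libraries 3 and 4, of set 2, were the higher ones.

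Mt-Nd1 was at 3079, 2508, 5805 and 5927 CPM in DREADD Sham (−1.75 ± 0.86), below all 3 CAG-GFP Sham libraries. Mt-Rnr2 was at 3541, 3442, 9975 and 6301 CPM (−2.68 ± 1.06, edgeR adjusted p = 0.23) and mt-Rnr1 had a log2 fold change of −2.45 ± 1.22. Mt-Nd6 was at 509, 405, 749 and 601 CPM (−2.67 ± 0.90). Mt-Nd2, mt-Nd4 and mt-Nd5 had log2 fold changes of −2.36, −2.45 and −2.24. All 9 well-counted genes were thus lower in every DREADD Sham library than in any CAG-GFP Sham library.

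None of the 33 genes passed edgeR's test in this comparison, which called 0.3% of all genes. At an unadjusted p under 0.05 there were 14, against 18.6% of all genes. Fold changes were negative for 29 of 33, with a median of −2.36 against 0.53 over all genes. Every DREADD Sham library was below every CAG-GFP Sham library for 24 of the 33, and for 12.7% of all genes. DESeq2 called 7 lower (mt-Ta, mt-Tn, mt-Tc, mt-Co1, mt-Ts1, mt-Co3 and mt-Cytb), or 21.2%, against 14.2% of all genes. Limma voom also called 7 lower (mt-Ty, mt-Co1, mt-Ts1, mt-Nd4, mt-Nd5, mt-Nd6 and mt-Cytb) against 4.59% of all genes. With library set as a covariate, edgeR called mt-Co1 (−3.92, adjusted p = 0.0334) and mt-Te (−4.13, adjusted p = 0.0458), against 0.782% of all genes. A fit of these 2 groups alone called 13 of 32 lower, against 4.26% of all genes.

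In set 1, DREADD Sham 1 and 2 were lower than CAG-GFP Sham for all 32 genes tested, and 14 of them fell past the threshold, against 3.07% of all genes. Mt-Co1 fell by 3.72 on the log2 scale (SE 0.17, edgeR adjusted p = 0.000302) and mt-Cytb by 3.25 (edgeR adjusted p = 0.000374). Mt-Rnr1 fell by 3.59, mt-Rnr2 by 3.44 and mt-Nd1 by 2.40. Among the tRNAs, mt-Tl1, mt-Ti, mt-Tm, mt-Ty and mt-Te were called, and mt-Ta, mt-Tn and mt-Tc were not. The summed astrocyte markers were 1883 and 2851 CPM in these 2 libraries. The ependymal and choroid plexus markers summed to 17245 and 17318 CPM there, and the blood cell markers to 6946 and 4.67 CPM. The part of cell mixture was not tested.

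DREADD Pilo against CAG-GFP Sham compares silenced cells after seizures with cells that had neither seizures nor the DREADD, and here 1 library decides the values. Mt-Co1 was at 4031, 5528 and 40759 CPM in DREADD Pilo, so libraries 1 and 2 stood with DREADD Sham and library 3 above every CAG-GFP Sham library. Mt-Cytb was at 6407, 9115 and 72326 CPM, mt-Nd1 at 3803, 5746 and 52032 CPM, mt-Nd6 at 509, 706 and 13879 CPM and mt-Rnr2 at 3453, 10787 and 72183 CPM, with the same order of libraries. No gene passed edgeR's test, which called 0.225% of all genes, and none had an unadjusted p under 0.05, against 19.2% of all genes. DESeq2 called 0 of the 33, against 14.6% of all genes. Limma voom called mt-Ty and mt-Co1 lower, against 5.38% of all genes. The 3 smallest p-values belonged to the tRNAs mt-Tl2 (log2 fold change 3.94 ± 2.02, edgeR adjusted p = 0.293), mt-Tk (4.81 ± 2.60, adjusted p = 0.321) and mt-Ts1 (−3.61 ± 2.05, adjusted p = 0.343).

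Few of the genes separated the groups. Every DREADD Pilo library was below CAG-GFP Sham for 3 of the 33 (mt-Ts1, mt-Co3 and mt-Nd4l), and for 14.9% of all genes. Mt-Co3 and mt-Nd4l are among the nearly empty mRNAs. Every DREADD Pilo library was above CAG-GFP Sham for 3 of the 33 (mt-Tl1, mt-Th and mt-Tl2), and for 19.8% of all genes. In neither direction did the share of mitochondrial genes exceed that of all genes. The 33 genes had a median log2 fold change of 0.32 with 19 positive, against 0.66 with 63.5% positive over all genes. Without DREADD Pilo 3 the median was −2.30 with 6 positive, against 0.47 over all genes. CAG-GFP Sham lies wholly in set 1 and DREADD Pilo wholly in set 2, so no fit within a set could compare them. With library set as a covariate, the set effect was drawn from CAG-GFP Pilo and DREADD Sham, which lie in both sets. In that edgeR fit 32 of the 33 genes were negative, with a median of −2.41 against 0.61 over all genes. The smallest edgeR adjusted p there was 0.336. Whether the set effect is alike in all groups was not tested.

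DREADD Pilo against CAG-GFP Pilo compares cells after seizures with and without the DREADD. The 3 smallest p-values were those of mt-Tc (2.49, 2.53 and 94.7 CPM in DREADD Pilo, log2 fold change 3.78 ± 1.17), mt-Tn (3.67 ± 1.18) and mt-Nd6 (2.57 ± 0.90), all with an adjusted p of 0.882 by edgeR. DREADD Pilo libraries 1 and 2 lay within the CAG-GFP Pilo range for mt-Tc, and only library 3 lay above it. EdgeR called none of the 33 genes and 0.0% of all genes. At an unadjusted p under 0.05 there were 6, against 5.36% of all genes. DESeq2 called mt-Tc higher, against 0.916% of all genes, and limma voom called 0, against 0.0% of all genes. The median log2 fold change was 1.16 with 28 of 33 positive, against 0.28 with 58.4% positive over all genes. Without DREADD Pilo 3 it was −1.12 with 3 positive, against 0.10 over all genes. In set 2 the median was 0.22 over 31 mitochondrial genes, against 0.26 over all genes. Without DREADD Pilo 3 the set 2 median was −1.86, against 0.15 over all genes.

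DREADD Pilo against DREADD Sham gives the seizure comparison in cells with the DREADD. Mt-Nd6 (log2 fold change 3.15 ± 0.91), mt-Nd5 (2.68 ± 0.85) and mt-Nd2 (2.71 ± 0.99) had the smallest p-values, all with an edgeR adjusted p of 0.954. Mt-Nd6 was at 405 to 749 CPM in DREADD Sham, and DREADD Pilo libraries 1 and 2 lay inside that range. EdgeR called none of the 33 and 0.0% of all genes. DESeq2 called 0 of the 33, against 0.846% of all genes, and limma voom 0, against 0.0%. At an unadjusted p under 0.05 there were 14, against 5.18% of all genes. The median log2 fold change was 2.39 with 32 of 33 positive, against 0.07 with 52.3% positive over all genes. Without DREADD Pilo 3 it was 0.12 with 21 positive, against −0.05 over all genes. In set 2 alone the median was 1.97 with 31 of 31 positive, against 0.20 over all genes. Without DREADD Pilo 3 the set 2 median was −0.27 with 6 of 31 positive, against 0.12 over all genes.

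The interaction asks whether the seizure difference is unequal with and without the DREADD. The smallest p-values were again those of the tRNAs beside mt-Co1: mt-Tc at 7.14 ± 1.65 and mt-Tn at 7.03 ± 1.66 on the log2 scale (both edgeR adjusted p = 0.219), then mt-Nd6 at 5.24 ± 1.27 and mt-Co1 at 4.54 ± 1.10 (both 0.227). EdgeR called none of the 33 and 0.0% of all genes. At an unadjusted p under 0.05 there were 12, against 11.7% of all genes. DESeq2 called 6 (mt-Tw, mt-Ta, mt-Tn, mt-Tc, mt-Co1 and mt-Cytb), against 7.8% of all genes, and limma voom called mt-Co1, against 0.198%. All 9 well-counted genes were positive in every setting run. The median over the 33 genes was 2.78, against −0.43 over all genes, of which 42.8% were positive. Without DREADD Pilo 3 the median of the 33 was 1.24 with 25 positive and a smallest edgeR adjusted p of 0.433. The median over all genes was then −0.58.

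Ratios between mitochondrial genes of 1 library do not depend on its scaling, and several set CAG-GFP Sham apart. Per count of mt-Nd1, the CAG-GFP Sham libraries had 2.84, 2.79 and 2.47 counts of mt-Co1, and the other 11 libraries had 0.575 to 1.20. For mt-Cytb the values were 2.96, 2.99 and 2.73 against 1.23 to 1.72. For mt-Nd4 they were 0.699 to 0.722 against 0.21 to 0.484. DREADD Pilo 3, whose mitochondrial share was the highest, had 0.783 counts of mt-Co1 per mt-Nd1 and in this ratio lay with the other 10. Not every ratio did this: mt-Nd6 per mt-Nd1 was 0.235 to 0.261 in CAG-GFP Sham and 0.0692 to 0.267 elsewhere, so the ranges overlapped. The overlap came from DREADD Pilo 3 alone, at 0.267, against 0.0692 to 0.186 in the other 10. For mt-Nd6 per mt-Nd5, DREADD Pilo 3 was at 0.414, inside the 0.352 to 0.430 of CAG-GFP Sham. The other 10 lay at 0.270 to 0.319.

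The tRNAs between mt-Nd2 and mt-Co1 showed the same split. Counts of mt-Tw, mt-Ta, mt-Tn, mt-Tc and mt-Ty together were 4.99, 4.76 and 4.83 per 100 counts of mt-Nd2 in CAG-GFP Sham, and 0.53 to 3.21 in the other 11 libraries. By rank of CPM per kilobase among the 15 mRNAs and rRNAs, mt-Co1 was at 2 or 3 in CAG-GFP Sham and at 3 to 6 elsewhere, while mt-Nd1 was at 4 and at 2 or 3. The astrocyte markers split the libraries in the same way, at 27386 to 28796 CPM against 753 to 6331, and their part in these ratios was not tested. These ratios were chosen after their values were seen, so they carry no test.

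**Figure D4:**
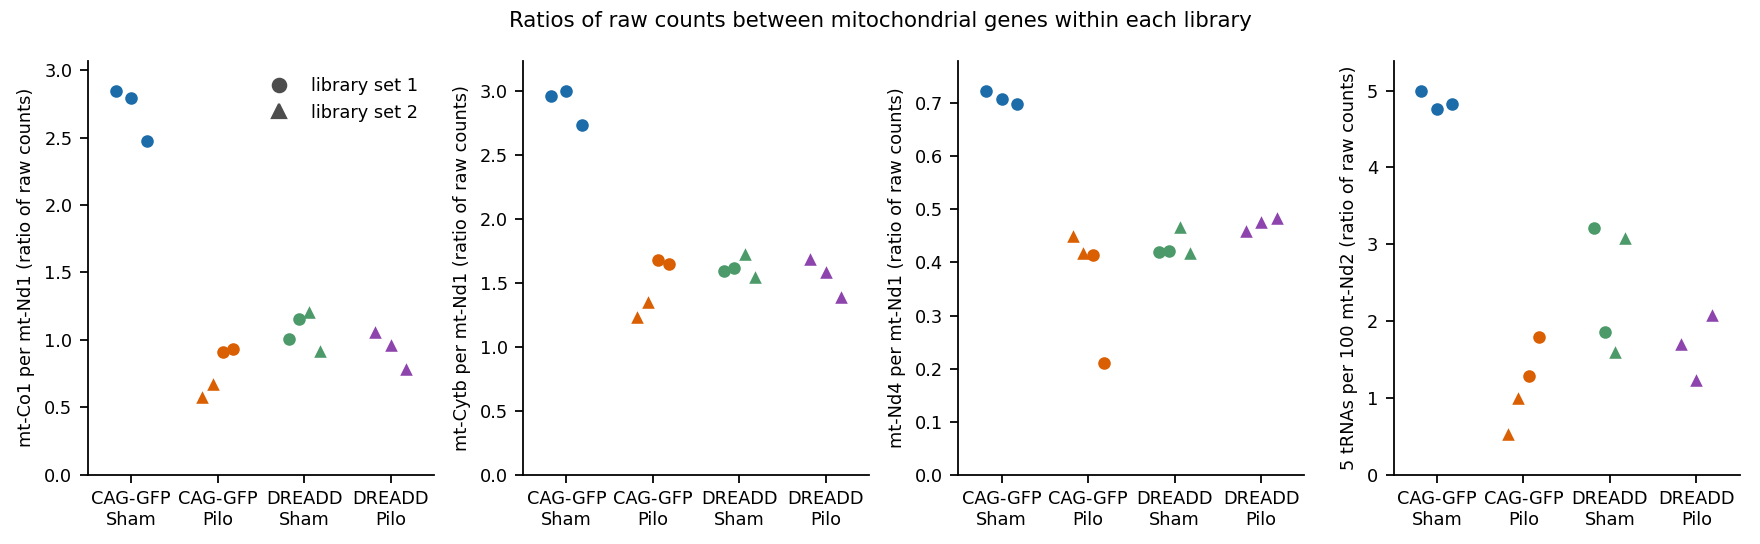
Ratios of raw counts between mitochondrial genes within each library, by group, as circles for library set 1 and triangles for set 2: mt-Co1, mt-Cytb and mt-Nd4 per mt-Nd1, and the 5 tRNAs mt-Tw, mt-Ta, mt-Tn, mt-Tc and mt-Ty per 100 mt-Nd2. In all 4 panels the 3 CAG-GFP Sham points lie above the other 11, at 2.47 to 2.84 against 0.575 to 1.20 in the first.

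Other tRNAs were set apart by library set when counted per neighbouring transcript. Mt-Tv, the valine tRNA between the rRNAs, was at 18.8, 25.0 and 18.8 CPM in CAG-GFP Sham, at 616, 483, 0.814 and 1.38 CPM in CAG-GFP Pilo, at 1.77, 2.79, 28.1 and 20.2 CPM in DREADD Sham and at 13.5, 52.4 and 311 CPM in DREADD Pilo. Per count of mt-Rnr2, its neighbour, it had 0.000289 to 0.000811 counts in set 1 and 0.00281 to 0.012 in set 2. Mt-Tl1, printed above, had 0.0041 to 0.00967 counts per count of mt-Nd1 in set 1 and 0.0245 to 0.0559 in set 2. Mt-Te had 0.00349 to 0.0115 counts per count of mt-Cytb in set 1 and 0.0164 to 0.0377 in set 2. In each of these ratios the sets did not overlap, and groups with libraries in both sets were split by them. Groups differed as well: within set 1, CAG-GFP Sham had 0.0083 to 0.00967 mt-Tl1 per mt-Nd1 against 0.0041 to 0.00786 in the other 4 libraries. For mt-Te per mt-Cytb the set 1 values were 0.00935 to 0.0115 against 0.00349 to 0.00848, and for mt-Tv itself 18.8 to 25.0 against 0.814 to 2.79 CPM.

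The 22 tRNAs together made up 0.438% to 0.811% of mitochondrial counts in set 1 and 1.30% to 2.75% in set 2. At least 5 CPM on average in some group was reached by 18 of them, and mt-Td, mt-Tk, mt-Tg and mt-Tr stayed under it. Mt-Tf, mt-Th, mt-Ts2, mt-Tl2, mt-Tt and mt-Tp reached their highest CPM in set 2 libraries, with CAG-GFP Pilo 2 highest for mt-Ts2 (51.0 CPM) and DREADD Pilo 3 for the other 5 (181 to 252 CPM). Mt-Ti, mt-Tq and mt-Tm, between mt-Nd1 and mt-Nd2, stood at 61.5 to 107 CPM in CAG-GFP Sham and at 3.25 to 445 CPM elsewhere. Mt-Ts1, the minus-strand tRNA after mt-Co1, was at 7.66 to 13.5 CPM in CAG-GFP Sham and at 0 to 2.45 CPM in the other 11 libraries.

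The rRNAs varied in a further way. They made up 49.3% and 50.7% of mitochondrial counts in CAG-GFP Pilo 1 and 2, and 16.5% to 31.4% in the other 12 libraries. In these libraries mt-Rnr1 was at 12811 and 13878 CPM, against 4739 to 7390 CPM in CAG-GFP Sham. Set 2 alone does not mark this difference, since its other 5 libraries lay at 16.5% to 31.4%. The labelled molecule is polyadenylated RNA, and the cDNA priming of tRNAs and rRNAs was not measured, so their levels describe what was captured.

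**Figure D5:**
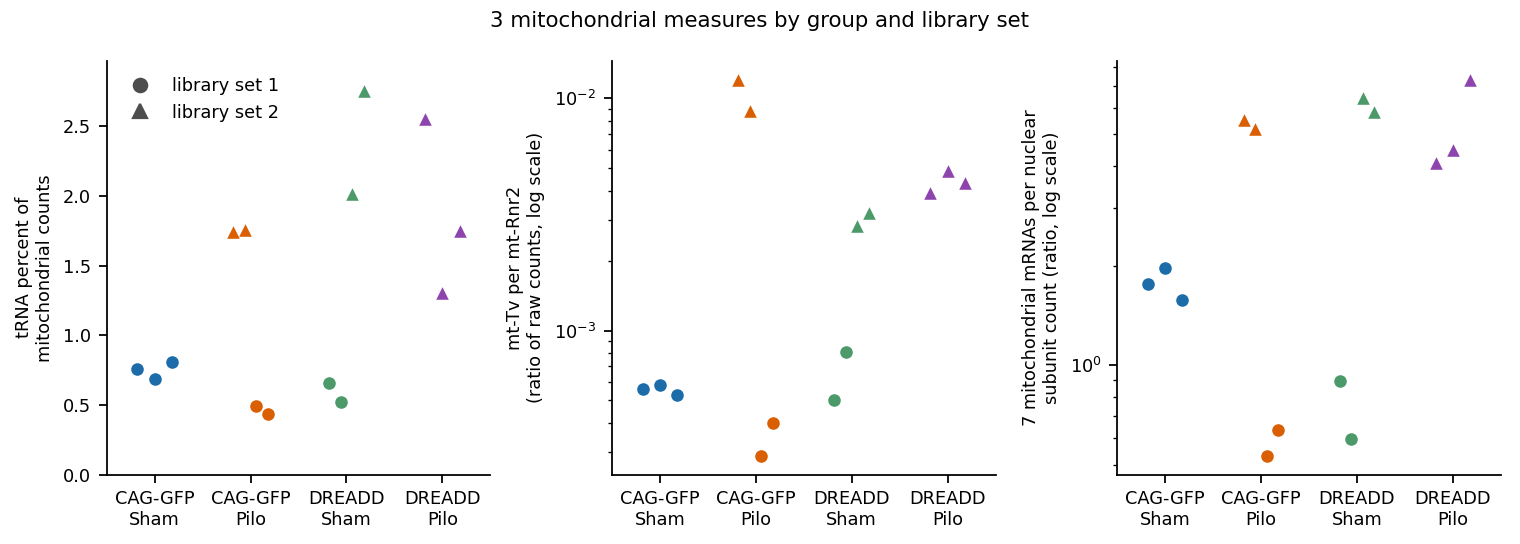
Share of tRNAs in percent of mitochondrial counts, mt-Tv per mt-Rnr2 (log scale) and the 7 well-counted mitochondrial mRNAs per count of 82 nuclear respiratory chain genes (log scale), by group, as circles for library set 1 and triangles for set 2. In each panel the sets do not overlap: 0.438% to 0.811% against 1.30% to 2.75% in the first.

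Nuclear genes provide the remaining subunits of the same complexes, and 80 of 82 listed were tested. Against the shared CAG-GFP Sham libraries their median log2 fold change was −2.77 in DREADD Sham, with 77 of 80 negative. It was −2.20 in CAG-GFP Pilo and −2.46 in DREADD Pilo, with 75 of 80 negative in each. Only Ndufc2, a complex I subunit, was called, in DREADD Sham (−3.33 ± 0.64, edgeR adjusted p = 0.0451), where edgeR called 0.3% of all genes. For the 12 mitochondrial mRNAs tested the median was −2.52 in DREADD Sham, −1.62 in CAG-GFP Pilo and −0.29 in DREADD Pilo. Counts of the 7 well-counted mitochondrial mRNAs per count of the nuclear subunits were 1.58 to 1.98 in CAG-GFP Sham and 0.531 to 0.896 in the other set 1 libraries. In set 2 this ratio was 4.08 to 7.32, above every set 1 library. Set 1 libraries had 17422 to 81076 CPM of nuclear subunit transcripts and set 2 libraries 4682 to 35859 CPM.

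Genes that build and run the mitochondrial expression machinery were mostly not called. Of 77 mitochondrial ribosomal proteins, Mrpl27 fell in DREADD Sham against CAG-GFP Sham (−2.59 ± 0.50, edgeR adjusted p = 0.0456) and Mrps33 in DREADD Pilo against CAG-GFP Sham (−5.60 ± 1.03, edgeR adjusted p = 0.0414). EdgeR called 0.3% and 0.225% of all genes in these comparisons, in that order. No gene was called in any comparison among 21 genes of RNA processing, stability and decay, where Hsd17b10, a subunit of the enzyme that trims the 5′ ends of mitochondrial tRNAs, had the smallest p (−2.87 ± 0.60 in DREADD Sham, edgeR adjusted p = 0.0601). None was called among 16 genes of transcription and replication, where Ssbp1, the single-stranded DNA-binding protein, had −1.91 ± 0.59 in DREADD Pilo (edgeR adjusted p = 0.193). The 12 translation factors had no call, with Gfm1, an elongation factor, at −5.32 ± 1.38 in CAG-GFP Pilo (edgeR adjusted p = 0.164). The 8 regulators of mitochondrial biogenesis had no call either, with Esrra, a nuclear receptor, at −1.64 ± 1.20 in DREADD Sham (edgeR adjusted p = 0.51). The 9 listed nuclear copies had none, and Gm28439 was at −7.39 ± 2.52 in DREADD Sham (edgeR adjusted p = 0.224). At an unadjusted p under 0.05 in DREADD Sham against CAG-GFP Sham, where 18.6% of all genes stood, there were 53 of 80 nuclear subunits and 29 of 77 ribosomal proteins. The same level was reached by 3 of 21 processing genes, 1 of 16 of transcription and replication, 2 of 12 translation factors, 0 of 8 biogenesis regulators and 2 of 9 copies. In CAG-GFP Pilo against CAG-GFP Sham it was reached by 42 of 80 nuclear subunits and 17 of 77 ribosomal proteins, and by 15.4% of all genes. In DREADD Pilo against CAG-GFP Sham it was 50 of 80, 26 of 77 and 19.2%. The other lists held 0 to 3 such genes in either comparison.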

How the data were processed

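Raw counts per gene for 43346 rows and 14 libraries were deposited by the authors in 1 table, without normalization as its whole numbers show. Libraries were made with SMART-Seq v4 from polyadenylated RNA of sorted cells, per the labels' protocols. Bowtie2, Subread, featureCounts, edgeR and R 4.1.1 are named in the submitters' processing notes with the build hg38, which is human, while every identifier in the table is a mouse one. Not given in the sources used here are the annotation release, the strand setting and the treatment of reads with several matches. Symbols, positions and sequences were taken from GENCODE M21 on GRCm38, which matched 42462 identifiers (98.0%).

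Libraries were grouped by title. Genes were tested in R 4.3.3 with edgeR 4.0.16 (TMM, filterByExpr, quasi-likelihood test, all 14 libraries fitted together). Benjamini-Hochberg adjustment covered 18676 genes, with a threshold of 0.05. The biological coefficient of variation was 1.47. CPM were taken over library total times TMM factor. The factors were 0.683 to 0.713 in CAG-GFP Sham, 0.716 in DREADD Pilo 3 and 0.982 to 1.39 in the other libraries. A lower factor gives a higher CPM for the same share of counts. Alternatives used DESeq2 1.42.0, limma 3.58.1 (voom), other scalings and filters, library sets parted at 1% of counts in pseudogenes, a replicate block and leaving out each library. Nuclear copies were blastn matches of mitochondrial transcripts to other transcripts over at least 100 bases at 80% identity. Matches on 1 further nuclear chromosome were left out, so the copies kept are fewer than this rule yields. The fit was also run on simulated data with less spread than these data and no library sets, so that run does not show how it performs here. The members, lists and library sets were chosen with earlier results of these data known, so no p-value is given for lists or sums. Named were all mRNAs and rRNAs, tRNAs with a group mean of at least 5 CPM, and per comparison the 3 smallest p-values, or, from the fixed nuclear lists, called genes or, where none was called, the gene with the smallest p over the comparisons with CAG-GFP Sham. Deviations from group means correlated at −0.381 to 0.115 over 19 pairs of libraries with the same number in their titles. Over 54 pairs with other numbers they correlated at −0.354 to 0.433. This check cannot decide on pairing, because libraries of the same set went together: CAG-GFP Pilo 3 correlated at 0.433 with DREADD Sham 2 and at −0.381 with DREADD Sham 3.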

Additional observations from a re-analysis of the deposited data

Results flagged for a closer look

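Among 68 gene-by-group sets of 4 libraries examined, 5 had a library far from the other 3, where chance flags about 1 in 20 groups. Mt-Tn at 5.34 CPM and mt-Tc at 4.61 CPM in CAG-GFP Pilo 2 stood far above the other 3 CAG-GFP Pilo libraries, though still far below CAG-GFP Sham. Mt-Co2 was at 0.0584 CPM in DREADD Sham 3, below 0.172 to 0.195 CPM in the other 3. Mt-Nd4l was at 0.282 CPM in CAG-GFP Pilo 1, where the other 3 were at 0, and at 2.58 CPM in DREADD Sham 1, against 0 to 0.174 CPM in the others. Both genes rest on few counts and have near-identical nuclear copies.

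Mt-Atp6 was lower than the CAG-GFP Sham mean in all 4 CAG-GFP Pilo libraries and higher than the DREADD Sham mean in all 3 DREADD Pilo libraries, and the 2 differences were 5.29 CPM apart. This opposite direction is a description; edgeR's interaction for mt-Atp6 was 2.78 ± 2.24 on the log2 scale (adjusted p = 0.637).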

How the results depend on the processing

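EdgeR called 0 mitochondrial genes in all 6 comparisons, also under the other scalings, without the filter, with nuclear copies added, with the replicate block (0 in each) and on leaving out each library (0 to 0). More were called by other fits, which also called more of all genes (share of all genes in brackets). DESeq2 called 4 in CAG-GFP Pilo (11.9%) and 7 in DREADD Sham (14.2%) against CAG-GFP Sham. It called 1 in DREADD Pilo against CAG-GFP Pilo (0.916%) and 6 in the interaction (7.8%). Limma voom called 10 (4.16%), 7 (4.59%) and, in DREADD Pilo against CAG-GFP Sham, 2 (5.38%), and 1 in the interaction (0.198%). Set 1 alone gave 17 (2.73%) and 14 (3.07%). Fits of only the groups compared gave 2 (1.12%) and 13 (4.26%). Library set as a covariate gave 2 in DREADD Sham (0.782%). Set 1 and groups-only fits held fewer libraries, and the cause of the added calls was not tested. Library totals in place of TMM raised the median of all genes by 0.68, 0.78 and 0.45 in the 3 comparisons with CAG-GFP Sham. Of 162 refitted values of the 9 well-counted genes per comparison, 6 reversed in CAG-GFP Pilo and 0 in DREADD Sham against CAG-GFP Sham. For DREADD Pilo, 25 of 144 reversed against CAG-GFP Sham, 30 of 171 against CAG-GFP Pilo and 10 of 171 against DREADD Sham, and in the interaction 0 of 207 did.

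Mt-Rnr1 in CAG-GFP Pilo against CAG-GFP Sham reversed to −2.41 (voom), −2.67 (set as a covariate), −3.66 (set 1), −0.22 (without CAG-GFP Pilo 1) and −0.39 (without CAG-GFP Pilo 2), and mt-Rnr2 to 0.13 with library totals. Without DREADD Pilo 3, mt-Nd5 was −0.029 against DREADD Sham, and mt-Nd6 was −0.49 and mt-Tn −0.17 against CAG-GFP Pilo. In set 2 without that library, a setting added after seeing the data, mt-Nd2, mt-Nd5 and mt-Nd6 were −0.21, −0.26 and −0.12 against DREADD Sham, and mt-Nd6, mt-Tc and mt-Tn were −1.04, −0.31 and −0.61 against CAG-GFP Pilo. Over leaving out each library, mt-Rnr1 ran from −0.39 to 0.66, mt-Nd5 from −0.029 to 3.19, mt-Nd6 from −0.49 to 3.12 and mt-Tn from −0.17 to 4.26 in these comparisons. Mt-Tl2 in DREADD Pilo against CAG-GFP Sham was −2.55 with set as a covariate. Low counts limit the 6 nearly empty mRNAs, and with 2 set 1 libraries per changed group the set 1 spread rests on few libraries.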
